A study of Homo sapiens with 3 samples.

Results

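The cytosolic ribosomal protein genes were taken as the protein-coding rows of the count tables named RPL or RPS with a number, RPLP0 to RPLP2, and RPSA, leaving out the RPS6K kinases and chromosome Y. They were 83 of 58735 listed genes, 52 named RPL or RPLP and 31 named RPS. Of these, 77 encode the standard proteins of the ribosome, 46 of the large subunit and 31 of the small subunit, and 6 are paralog genes (RPL3L, RPL7L1, RPL10L, RPL22L1, RPL26L1 and RPL39L). RNA-seq was performed on DU145, a castration-resistant prostate cancer cell line, to ask what the immune ligand PD-L1 does inside such cells. The series holds 3 libraries of stable lentiviral lines selected with puromycin: 1 control line carrying the empty pLKO.1 vector and 2 lines with 1 shRNA against PD-L1 each, labelled PD-L1 knockdown 1 and 2. The control has no replicate, and the labels do not say that the 2 knockdown libraries came from separate cultures beyond their shRNA, so the p-values below rest on the spread between 2 libraries made with different hairpins.

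Each ribosome is built from ribosomal RNA and 1 copy of most ribosomal proteins, so their genes are usually expressed together and at high levels in dividing cells. Their mRNAs carry a 5′ terminal oligopyrimidine (TOP) start, a C at the first base followed by an unbroken run of C and T, through which mTOR signalling and the binding protein LARP1 set how much they are translated. Growing tumour cells make many ribosomes, and loss of 1 copy of several of these genes causes Diamond-Blackfan anaemia.

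The libraries held 14733088 counts in the control and 14738298 and 15786457 counts in the libraries labelled PD-L1 knockdown 1 and 2. CD274, the gene of PD-L1, had 204, 213 and 224 counts, so neither knockdown library held fewer CD274 counts than the control. The paper checked PD-L1 protein in its DU145 knockdown lines by western blot, which RNA counts do not measure. RBM45, a gene named in the column heading of the control's counts, had 150, 160 and 152. The libraries are therefore named by their labels, and any direction below is that of the labels. The 4 epithelial markers were present in every library, KRT8 highest with 16068, 17914 and 19056 counts. The prostate luminal marker KLK3 was at 0 counts in all 3 libraries. The series text names a thyroid line, BCPAP, and the thyroid markers TG and PAX8 were between 3 and 29 counts. The leukocyte marker PTPRC had at most 3 counts, COL1A2 at most 6, and the other fibroblast marker COL1A1 101, 98 and 149.

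To show the starts of these mRNAs, RefSeq transcription starts (GRCh38.p14) were matched by symbol to 66 members, with 82 starts. A C at the start followed by a pyrimidine run of at least 5 bases in all was found in 47 of the 66 (71.2%), against 5.14% of all 27305 genes with a listed start. In the 47 members the run had a median of 8 bases and the longest had 19. The windows below hold 40 bases before and 20 bases from the start, read 5′ to 3′ on the gene's strand, and capitals mark the pyrimidine run that opens the mRNA. They were chosen as the 4 members with the highest and the 4 with the lowest log2 fold change among those of at least 100 counts with 1 listed start, plus RPL7L1 as a paralog. RPL35, RPS9, RPL13A and RPL35A are those with the highest values:
RPL35 (chr9:124861938-124861997, minus strand): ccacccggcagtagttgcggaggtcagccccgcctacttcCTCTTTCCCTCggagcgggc
RPS9 (chr19:54200818-54200877, plus strand): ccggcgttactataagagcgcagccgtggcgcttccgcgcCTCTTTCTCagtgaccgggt
RPL13A (chr19:49487568-49487627, plus strand): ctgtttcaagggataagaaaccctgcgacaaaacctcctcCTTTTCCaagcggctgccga
RPL35A (chr3:197950150-197950209, plus strand): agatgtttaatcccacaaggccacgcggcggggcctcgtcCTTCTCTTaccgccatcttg
RPL22L1, RPL21, RPL17 and RPL22 are those with the lowest values, followed by RPL7L1:
RPL22L1 (chr3:170870176-170870235, minus strand): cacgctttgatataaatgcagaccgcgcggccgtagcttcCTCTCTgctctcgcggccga
RPL21 (chr13:27251518-27251577, plus strand): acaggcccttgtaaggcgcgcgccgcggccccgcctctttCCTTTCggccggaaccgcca
RPL17 (chr18:49492446-49492505, minus strand): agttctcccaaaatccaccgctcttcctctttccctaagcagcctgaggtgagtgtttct
RPL22 (chr1:6199576-6199635, minus strand): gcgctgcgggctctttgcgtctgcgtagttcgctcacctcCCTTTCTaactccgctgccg
RPL7L1 (chr6:42879576-42879635, plus strand): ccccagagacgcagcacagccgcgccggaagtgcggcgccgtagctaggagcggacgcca
RPL17 and RPL7L1 have no run at the listed start, while RPL22L1, RPL21 and RPL22 have runs of 6, 6 and 7 bases, against 11, 9, 7 and 8 in the first 4 genes. A match describes these letters at the listed start only.

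The ribosomal protein genes were slightly higher in the libraries labelled PD-L1 knockdown, by a median of 1.14-fold. Their summed counts were 429382 in the control, 499128 in knockdown 1 and 519191 in knockdown 2. As a share of all counts this was 2.91% (exact binomial 95% interval 2.91 to 2.92) in the control, 3.39% (3.38 to 3.40) in knockdown 1 and 3.29% (3.28 to 3.30) in knockdown 2, that is 1.16 and 1.13 times the control. The control was lower than both other libraries, but it is a single library, and intervals here cover counting error only. Without molecular identifiers PCR copies cannot be told from separate molecules, so even that error may be understated. In these bulk libraries fewer cells of a kind and less RNA per cell cannot be told apart. The 1144 rows for pseudogenes of 77 members, found by their names, held 21395, 24360 and 25226 counts, 4.98%, 4.88% and 4.86% of the members' own counts. Copies listed under other names are not in these sums.

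Gene by gene, 82 members had at least 10 counts in all and were tested with edgeR over 19849 genes. Of these, 75 had a log2 fold change above 0, against 50.2% of all genes tested, with a median of 0.19 against 0.00. The changes were small, from -0.27 for RPL36A to 0.53 for RPL35, and 20 members were above 1.2-fold. At an unadjusted p under 0.05, 31 members were higher and 0 lower, against 6.82% and 4.92% of all genes. After Benjamini-Hochberg adjustment 3 members, RPL35, RPL8 and RPS9, were higher and 0 lower, with 0.353% of all genes called in either direction. With the limits printed in the study's volcano plot, an unadjusted p under 0.05 together with a log2 fold change beyond 1 in either direction, edgeR called 0 members and 2.48% of all genes. None of the 3 adjusted calls was made by the DESeq2 Wald test, which gave 21 members as higher at an unadjusted p under 0.05, against 1.72% of all genes.

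**Figure D1:**
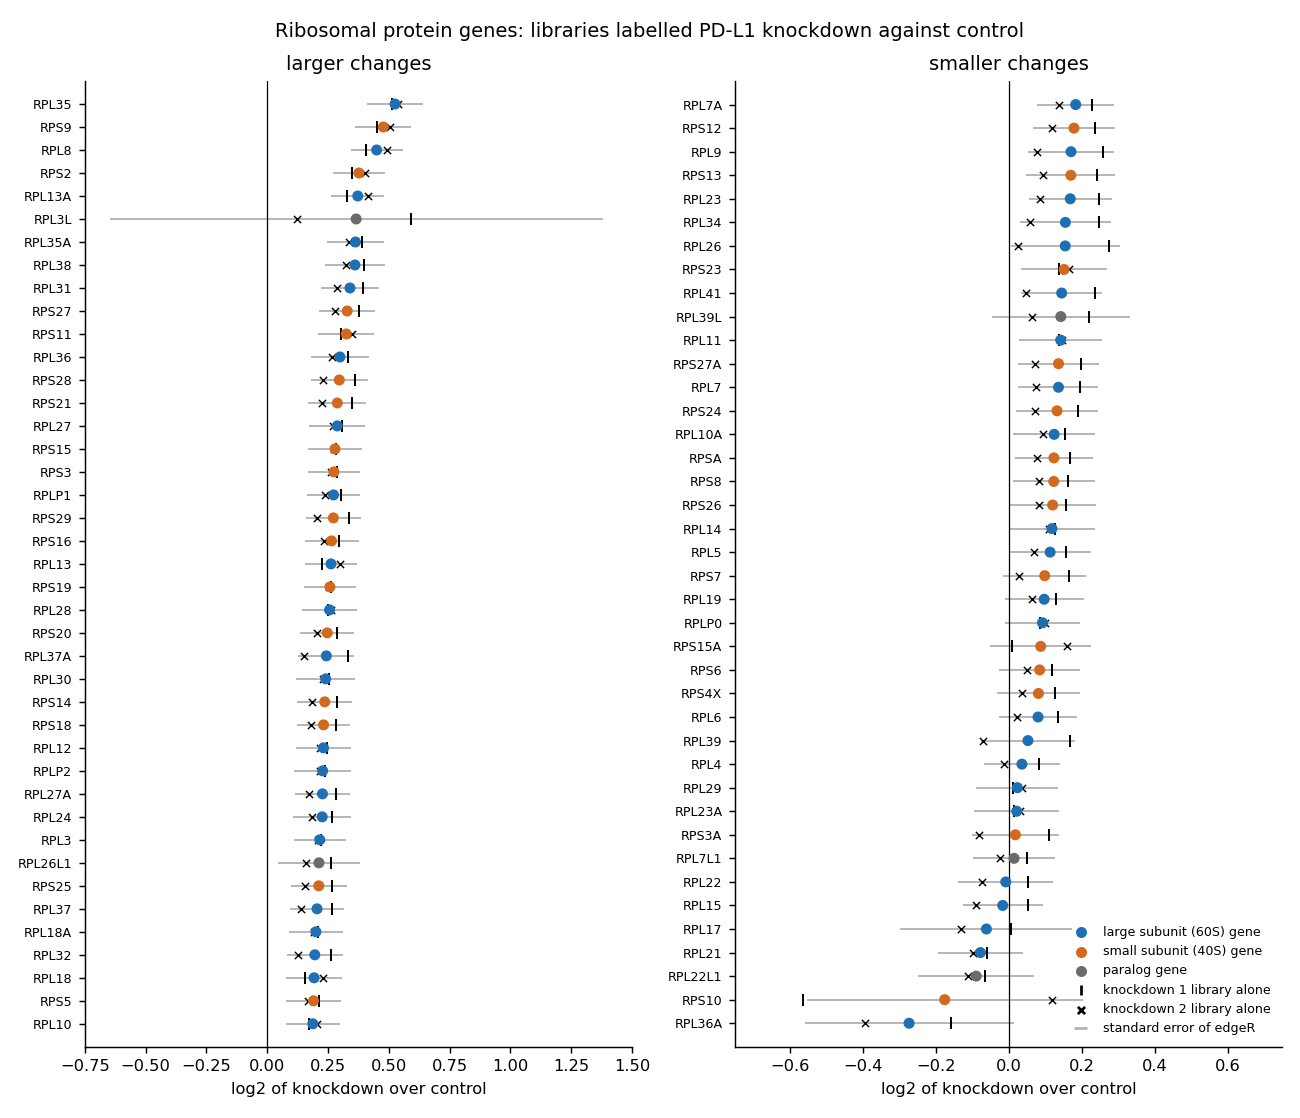
Log2 of knockdown over control (x axis) for 81 of the tested members in order of size, with the upper part of the order in the left panel and the lower in the right, on different x scales. Dots are the edgeR estimates coloured by subunit, bars their standard error, and ticks and crosses the ratio to the control of knockdown 1 and of knockdown 2 alone. RPL35 is at 0.53 and RPL36A at -0.27, and the wide bar of RPL3L rests on 6, 9 and 7 counts.

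Among the members counted well enough to read gene by gene, 72 had a mean of at least 1000 counts. In this class 69 were above 0, against 51% of the 3801 genes of that depth, and 31 were higher at an unadjusted p under 0.05, against 10.6%. The ratio of knockdown 1 to the control had a 95% counting interval above 1 in 67 members (31.4% of all genes of that depth) and below 1 in 0 (26.2%). The 5 whose interval was not above 1 were RPL21, RPL22, RPL23A, RPL29 and RPL7L1, named here after their values were seen. For knockdown 2 the interval was above 1 in 58 members (37.1%) and below 1 in 3 (35.6%), which were RPL15, RPL21 and RPS3A, also named after their values were seen. Both ratios use the same control library, so a low control value raises both at once.

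RPL35, a large subunit protein near the exit of the nascent chain, showed the largest change. It had 4672 counts in the control and 6639 and 7259 in knockdown 1 and 2, or 317, 450 and 460 CPM (counts scaled to the library total). Both knockdown libraries stood well above the control, at 1.43 (1.37 to 1.48) and 1.45 (1.40 to 1.51) times its level, and close to each other. The edgeR log2 fold change was 0.53 (SE 0.11, adjusted p = 0.00362). The gene (ENSG00000136942) lies on the minus strand of chromosome 9 from 124857880 to 124861981 (GRCh38), and its representative transcript has 4 exons. Of the 31-base words of its coding sequence 63.7% occur in another annotated gene, and the rows for its pseudogenes held 13, 24 and 26 counts.

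RPS9, a small subunit protein that takes part in decoding accuracy, had 3894, 5293 and 5914 counts in the control, knockdown 1 and knockdown 2. Its ratios to the control were 1.37 (1.31 to 1.42) and 1.42 (1.36 to 1.48), with a log2 fold change of 0.48 (SE 0.11, edgeR adjusted p = 0.0202). RPL8, a large subunit protein that contacts the catalytic centre, had 14001, 18458 and 21104 counts. In RPL8 the 2 knockdown libraries were both above the control but differed from each other, at 1.32 (1.30 to 1.35) and 1.41 (1.38 to 1.44) times its level. The log2 fold change of RPL8 was 0.45 (SE 0.11, edgeR adjusted p = 0.0157). The coding sequences of RPS9 and RPL8 share 58.0% and 20.2% of their words with other genes, and no pseudogene row named after either gene held a count. The genes sharing most of these words, AL080243.2 for RPS9 and AC021074.1 for RPL8, have other names and are not among those rows.

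The next members in order did not pass the adjusted threshold. RPS2, at the mRNA entry side of the small subunit, had 14985, 19005 and 21228 counts, with a log2 fold change of 0.38 (SE 0.11, edgeR adjusted p = 0.0684). RPL13A, a large subunit protein also known for silencing inflammatory mRNAs once released, had 8220, 10279 and 11728 counts and 0.37 (SE 0.11, adjusted p = 0.0969). In both genes the control was the lowest library. RPS2 shares 88.7% of its coding words with other genes, and the rows for its pseudogenes held 3639, 5006 and 5576 counts, so its reads are uncertain in part. The edgeR adjusted p of RPS2 was 0.0419 with those rows added, but 0.670 with the length and GC trends of the libraries removed (log2 fold change 0.19), and 0.9998 with DESeq2. RPL13A shares 87.9% of its coding words with other genes, and the rows for its pseudogenes held 722, 826 and 792 counts. With the trends removed RPL13A was at 0.24 (edgeR adjusted p = 0.557). Its edgeR adjusted p was 0.122 with its pseudogene rows added, and its DESeq2 adjusted p was 0.9998.

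At the other end, the members of at least 100 counts with the lowest log2 fold changes were RPL22L1, RPL21, RPL17, RPL15 and RPL22. RPL21, a large subunit protein, had 2827, 2703 and 2830 counts, or 192, 183 and 179 CPM, and its log2 fold change was -0.08 (SE 0.12). RPL15, a large subunit protein mutated in Diamond-Blackfan anaemia, had 501, 517 and 471 CPM, and its log2 fold change was -0.02 (SE 0.11). The libraries labelled knockdown stood on either side of the control for RPL15 and below it for RPL21. Neither gene passed the test, with edgeR adjusted p-values of 0.969 and 0.848, and RPL21 shares 100% of its coding words with other genes.

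By role, the medians of both subunits were close. The 46 large subunit genes had a median log2 fold change of 0.19 with 41 above 0 and 17 higher at an unadjusted p under 0.05, and the 31 small subunit genes had 0.19 with 30 above 0 and 14 higher. Over all genes tested 50.2% were above 0 and 6.82% higher at that p. Whether the subunits differ was not tested. Of the 3 stalk proteins, which recruit the translation factors, RPLP0 had 24107, 25485 and 27629 counts, with a log2 fold change of 0.09 (SE 0.10). Its partners RPLP1 and RPLP2 were at 0.27 (SE 0.11) and 0.23 (SE 0.12), and none of the 3 passed the adjusted threshold. With the length and GC trends removed RPLP2 was at 0.044.

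RPL5, RPL11 and RPL23 can bind MDM2 when not built into ribosomes and so stabilise p53, which is mutated in DU145. Their CPM in the control, knockdown 1 and knockdown 2 were 405, 449 and 424 for RPL5. For RPL11 they were 277, 303 and 306, and for RPL23 they were 285, 336 and 302. All 3 were lowest in the control, with log2 fold changes of 0.11, 0.14 and 0.17 (SE 0.11 each), and none passed the unadjusted threshold. Among 20 Diamond-Blackfan anaemia genes 18 were above 0, with a median of 0.17 and 9 higher at an unadjusted p under 0.05, against the same 50.2% and 6.82% of all genes. The 82 tested members, these 20 among them, had 75 above 0, a median of 0.19 and 31 higher.

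Several members have a further known role. RPS6, the classical substrate of the S6 kinases, had 460, 498 and 476 CPM and a log2 fold change of 0.08 (SE 0.11). RPSA, also the laminin receptor, had 785, 877 and 828 CPM and 0.12 (SE 0.11). RPS27A, which is made as a fusion with ubiquitin, had 454, 518 and 476 CPM and 0.14 (SE 0.11). All 3 were lowest in the control and highest in knockdown 1, and none passed the test. RPS4X and RPL10, both on the X chromosome, had log2 fold changes of 0.08 (SE 0.11) and 0.19 (SE 0.11).

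The paralog genes were set beside the genes they resemble. RPL22L1 had 529, 503 and 524 counts, or 35.9, 34.1 and 33.2 CPM, with a log2 fold change of -0.09 (SE 0.16), and its partner RPL22, an RNA-binding large subunit protein, had 85.6, 88.4 and 81.3 CPM and -0.01 (SE 0.13). RPL7L1, which acts in ribosome assembly, had 4674, 4821 and 4926 counts, with a log2 fold change of 0.01 (SE 0.11), beside 0.14 (SE 0.11) for RPL7. RPL26L1 had 385, 460 and 461 counts and 0.21 (SE 0.17), beside 0.15 (SE 0.15) for RPL26 with 629, 758 and 685 counts. RPL26 was at 0.028 without knockdown 1 and 0.28 without knockdown 2. RPL39L had 252, 292 and 282 counts and 0.14 (SE 0.19), beside 0.05 (SE 0.13) for RPL39. No paralog or partner among these passed the adjusted threshold, and differences within pairs were not tested. RPL3L, the striated muscle form of RPL3, was near absent with 6, 9 and 7 counts, whereas RPL3 had 13219, 15361 and 16363 counts (log2 fold change 0.22, SE 0.11, or 0.079 with the length and GC trends removed). RPL10L, a testis form of RPL10, was at 0 counts in all 3 libraries, which allows up to 0.204, 0.204 and 0.190 CPM at 3 counts. The coding sequences of RPL7L1 and RPL26L1 share 80.8% and 74.6% of their words with other genes, so reads of these copies are uncertain.

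Levels were compared between members as CPM per kb of coding sequence, on which scale RPL41, the shortest ribosomal protein, was highest with 6071, 7120 and 6267 in the control, knockdown 1 and knockdown 2. Reads on untranslated parts are counted but not in this length, which raises genes with a short coding sequence, such as the 75 coding bases of RPL41 in a representative mRNA of 469 bases, so the order is that of this scale only. The other core members without much overlap with another gene ranged from 214 to 6486 as means over the libraries, RPL41 included, with a median of 747. The deposited FPKM divide instead by a listed length that joins all annotated exons, with a median of 2982 bases or 5.95 times the coding length. By FPKM the highest members were RPL8, RPS12, RPS2, RPL41 and RPLP0, with means of 545, 507, 503, 445 and 425. By coding length RPL8 ranked 7 and RPS12 ranked 22, and across the 83 members the rank correlation of the scales was 0.75 (Spearman, a description over genes that share libraries).

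**Figure D2:**
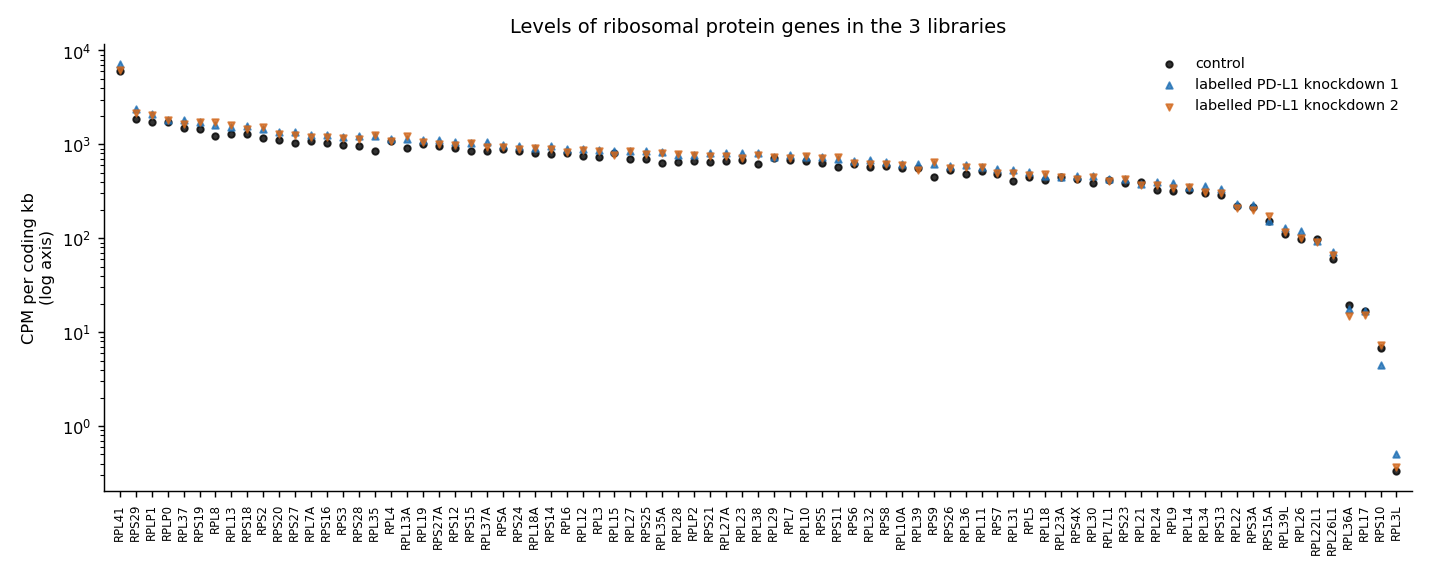
CPM per kb of coding sequence (y axis, log scale) of 81 of the members with a count, in order of their mean, in the control (circles) and the libraries labelled PD-L1 knockdown 1 (upward triangles) and 2 (downward triangles). Most members lie within 1 order of magnitude around the median of 747, and the members at the right end are low in all 3 libraries.

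Core members with the lowest levels mostly shared exons with another listed gene on the same strand. In RPS10, RPL36A, RPL17, RPL26, RPS15A and RPL22, between 54.6% and 100% of the coding bases lie under such exons, and their levels were 6.18 to 222 CPM per coding kb. RPS3A, with 0% same-strand overlap, was at 214, below RPL22 at 222. RPS10, a small subunit protein, had 49, 33 and 57 counts, and RPL36A had 92, 82 and 75. RPL17 had 137, 137 and 134 counts. These are low for proteins that every ribosome contains, and the 6 overlapping genes, such as the read-through rows RPS10-NUDT3 and RPL36A-HNRNPH2, held at most 2 counts in any library and 0 throughout in 3. Of the 76 core members described here 5 had a mean under 1000 counts, and each of the 5 was among these 6. The other 70 had at most 1.31% of their coding bases overlapped and means of at least 1320 counts. How the counting treated reads on shared exons is not given in the sources used here, and the part of the overlap in these values was not tested. The median log2 fold change of the 6 was -0.03, with 2 above 0, and none was called.

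**Figure D3:**
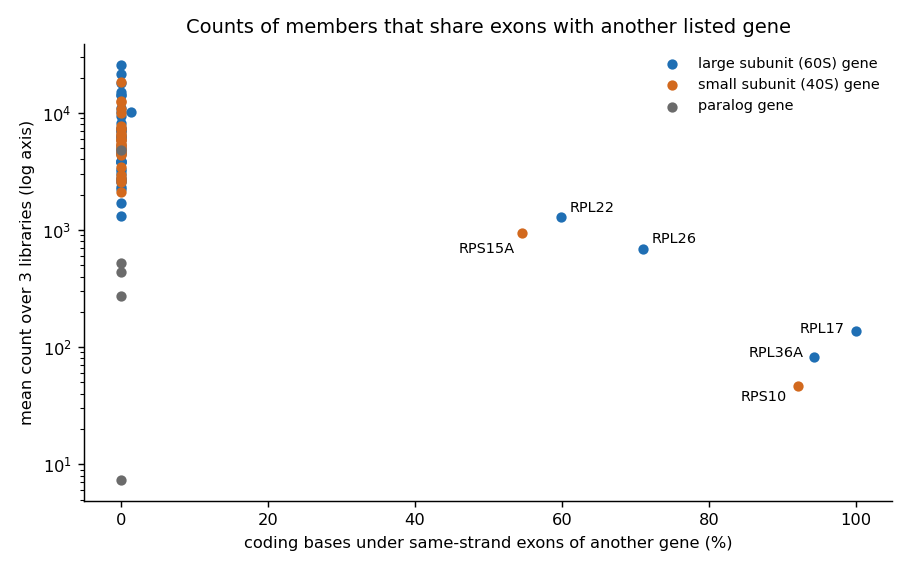
Mean count over the 3 libraries (y axis, log scale) against the percentage of coding bases under same-strand exons of another gene (x axis) for 81 of the members with a count. The 6 named genes have 54.6% to 100% overlap, and all except RPL22 lie under 1000 counts, as do 4 paralog genes without overlap.

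Sequence identity also limits single values. In 59 of the 83 members more than 50% of the 31-base coding words occur in another gene, with a median of 75.5% of words shared over the 83, so that values of single members depend on how reads matching several genes were counted.

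The size of the change went with the GC content of the gene, as it did across all genes. Over the 3801 genes of at least 1000 counts the Spearman correlation of log2 fold change with GC was 0.80, and over the 72 members it was 0.49, as descriptions over genes that share 3 libraries. The 24 members lowest in GC (43.1% to 46.8%) had a median log2 fold change of 0.14 with 6 higher at an unadjusted p under 0.05, and the 24 highest (53.1% to 63.5%) had 0.26 with 15 higher. All genes of that depth with about 44.4% GC had a median of -0.10, and those with about 58.3% GC had 0.19. RPL35, RPL8 and RPS9 have 59.0%, 61.0% and 58.2% GC. With the trends of each library in length and GC removed, the members' median was 0.16 against 0.02 for all genes. In that fit 73 of 82 members were above 0, against 53.3% of genes, and 31 were higher at an unadjusted p under 0.05, against 4.31%. The 3 adjusted calls were lost there. That fit also had 27.2 prior degrees of freedom, against infinite in the main fit. The part of this difference in the loss was not tested. The log2 fold change was 0.34 for RPL35 (edgeR adjusted p = 0.217), 0.26 for RPL8 (adjusted p = 0.452) and 0.30 for RPS9 (adjusted p = 0.431).

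**Figure D4:**
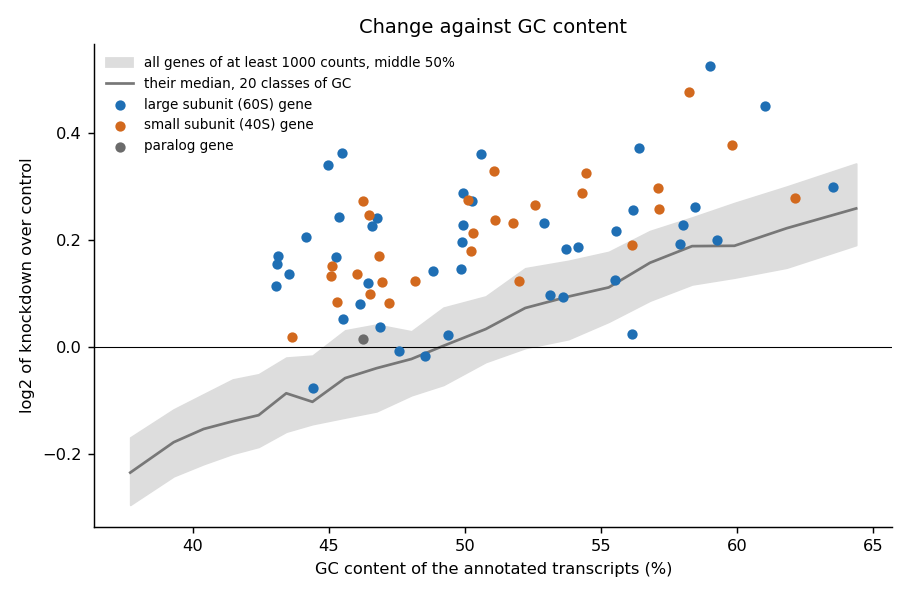
Log2 of knockdown over control (y axis) against GC content in percent (x axis) for the 72 members of at least 1000 counts, coloured by subunit. The grey line and band are the median and the middle 50% of all 3801 genes of that depth in 20 classes of GC, and most members lie above the band at low GC and within or above it at high GC.

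Short coding sequences also went with larger changes. The 24 shortest (75 to 405 bases) had a median log2 fold change of 0.24 and the 24 longest (588 to 1281 bases) had 0.12, with a Spearman correlation of -0.39 over the 72 members. By listed length the correlation was -0.14 over the 72 members and -0.36 over the 3801 genes of at least 1000 counts. The median listed length was 2992 bases for the 82 tested members and 6317 for those 3801 genes. The part of length alone in the members' change was not tested. With the mean count the correlation over the 72 members was 0.07. Members with a TOP run at the listed start had a median of 0.19 with 42 of 47 above 0, and those with a start but no run 0.12 with 16 of 18 above 0. The difference between these classes was not tested.

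Knockdown 2 was mostly lower than knockdown 1. Taken alone against the shared control, the members' median log2 ratio was 0.24 in knockdown 1 and 0.14 in knockdown 2, and directly compared knockdown 2 was lower than knockdown 1 in 64 of 82, with a median of -0.08. Among the 72 well-counted members the interval of this ratio was below 1 in 42, against 26.9% of genes of that depth, and above 1 in 6, against 25.7%. The 6 were RPL8, RPS9, RPS2, RPL13A, RPL13 and RPL18, the last 2 named after their values were seen, with GC contents of 56.4% to 61.0%. The 42 had a median GC of 46.9%. Each shRNA has 1 library, so hairpin, line and library cannot be told apart, and the part of GC in this difference was not tested.

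The other ribosomal and translation genes were read from lists. Of 78 mitochondrial ribosomal protein genes, which serve the ribosome of mitochondria, 58 were above 0 with a median of 0.13, and 18 were higher and 0 lower at an unadjusted p under 0.05. Over all genes tested 50.2% were above 0, with 6.82% higher and 4.92% lower at that p. Their largest rise among genes of at least 100 counts was MRPL41 with 411, 581 and 694 counts (log2 fold change 0.58, SE 0.16, edgeR adjusted p = 0.0666) and their lowest MRPL19 at -0.24 (SE 0.13). Of the ribosomal proteins under other names, FAU, a fusion that yields the small subunit protein eS30, had 2060, 2764 and 2970 counts, with a log2 fold change of 0.43 (SE 0.12, edgeR adjusted p = 0.0684), and RPS27L was at -0.05 (SE 0.17). The paralog RPL36AL had 2696, 2961 and 3159 counts and 0.14 (SE 0.12). None of the genes in these lists was called at the adjusted threshold by edgeR.

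Of 20 other TOP mRNAs, such as those of elongation factors, 19 were tested, with a median of 0.01 and 11 above 0. With the length and GC trends removed this median was 0.086, beside 0.16 for the members. EEF2, the translocase of elongation, was highest with 35733, 40427 and 48070 counts (log2 fold change 0.26, SE 0.10) and the only one higher at an unadjusted p under 0.05. NAP1L1, a histone chaperone, was lowest at -0.15 (SE 0.11). EEF1A1, which carries aminoacyl tRNA to the ribosome, had 64977, 67546 and 69890 counts and 0.03 (SE 0.10). EEF1G was listed at 0 counts in all 3 libraries, beside 2990, 3369 and 3308 for the elongation factor gene EEF1B2. The cause of the 0 counts was not tested, so they are not read as absence of EEF1G RNA. The 40 ribosome biogenesis factors had a median of 0.01 with 21 above 0, with 6 higher and 1 lower at an unadjusted p under 0.05. Shares over all genes tested were 50.2% above 0, 6.82% higher and 4.92% lower. BOP1, of large subunit maturation, had 1203, 1541 and 1929 counts (0.48, SE 0.13, edgeR adjusted p = 0.0529) and UTP20, of small subunit processing, 3121, 2704 and 2587 (-0.28, SE 0.12). The differences between these lists and the members were not tested.

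**Figure D5:**
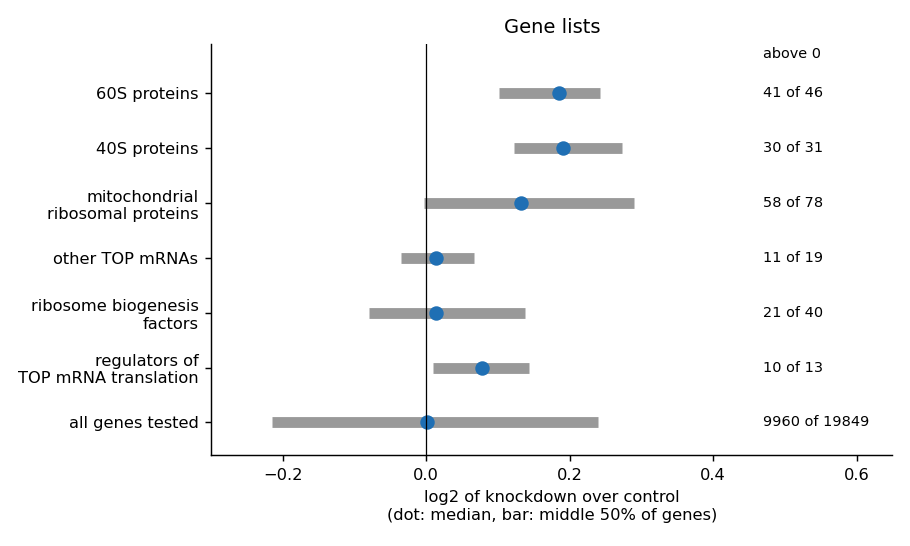
Median log2 of knockdown over control (dots) and the middle 50% of genes (bars) on the x axis for each list, with the number of tested genes above 0 at the right. Ribosomal proteins of both subunits centre on 0.19, mitochondrial ones on 0.13, and other TOP mRNAs and biogenesis factors on 0.01, without removal of length and GC trends.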

How the data were processed

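RNA was extracted from the control line and both PD-L1 shRNA lines of DU145, selected on oligo(dT) beads, copied with random hexamers and sequenced by a service company. The authors deposited counts per gene without normalization and FPKM values, which were checked to equal count over listed gene length and 1 constant per library. The submitters' processing notes name Bowtie2 2.0.6, TopHat2 2.0.9, Cufflinks 2.1.1 and Cuffdiff 2.1.1. The strand setting and the treatment of reads that match several genes are not given in the sources used here. Of 58735 listed positions 58690 equal GENCODE version 29 (GRCh38). The labels state DMEM and the paper EMEM.

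Genes with at least 10 summed counts (19849) entered the quasi-likelihood test of edgeR 4.0.16 under R 4.3.3 (TMM, glmQLFit, glmQLFTest), 2 knockdown libraries against 1 control, with Benjamini-Hochberg adjustment over all genes. This leaves 1 residual degree of freedom. The common dispersion was 0.00719, and the prior degrees of freedom were infinite, so the spread was shared over all genes. With length and GC trends removed the prior degrees of freedom were 27.2. Ratios of 2 libraries have exact 95% counting intervals conditional on their sum, and shares have exact binomial intervals. The fit and the intervals were tested on simulated data. Overlap and shared 31-base words were taken over the coding sequence of 1 representative transcript per gene. GC content was taken over all annotated transcripts of a gene, so exons in several transcripts count more than once.

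Genes were named by rule: every called member, the 5 highest and 5 lowest by mean FPKM, the 5 largest and smallest changes at a mean of at least 100 counts, paralogs with partners, a set of well-known members, and the extremes of other lists. EEF1A1, EEF1B2, EEF1G, LARP1, MTOR and MYC fall outside this rule, as do genes marked as named or picked after their values were seen. Members and lists were chosen with earlier results of these data known. Alternatives were DESeq2 1.42.0, other scalings and filters, added pseudogene rows, removed trends and each library left out. Values of 1 member and of some marker genes are not reported here.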

Additional observations from a re-analysis of the deposited data

How the results depend on the processing

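The members' median log2 fold change of 0.19 was between 0.16 and 0.19 under the other scalings, filters, pseudogene rows, removed trends and DESeq2. It was 0.15 without knockdown 1 and 0.24 without knockdown 2. The 3 adjusted calls became 0 under DESeq2 (adjusted p 0.0999 for RPL35, 0.403 for RPL8 and 0.485 for RPS9) and 0 with length and GC trends removed, where 8 genes in all were called instead of 70 and 31 members were higher at an unadjusted p under 0.05. RPS2 passed with the filter at 1 count (adjusted p = 0.0333) or with pseudogene rows (0.0419), but not with trends removed (log2 fold change 0.19, adjusted p = 0.670) or DESeq2 (0.9998). The median of other TOP mRNAs moved to 0.086 with the trends removed. The members' share in the control, knockdown 1 and knockdown 2 was 3.06%, 3.55% and 3.45% with pseudogene rows, 3.18%, 3.67% and 3.54% of nuclear protein-coding counts, and 3.80%, 4.45% and 4.39% of summed FPKM. Among 33 named members, 10 of 297 values changed sign, each near 0 or thinly counted: with trends removed RPL15 (0.039) and RPL22L1 (0.040), and with pseudogene rows RPL22 (0.0041) and RPS10 (0.11). Leaving out 1 knockdown library, the log2 fold change ranged from -0.086 to 0.053 for RPL15, -0.13 to 0.0063 for RPL17, -0.069 to 0.054 for RPL22, -0.068 to 0.17 for RPL39, -0.019 to 0.051 for RPL7L1 and -0.56 to 0.12 for RPS10, with the higher value from knockdown 1 alone except for RPS10. Of the named members that kept their sign, 12 fell to less than 1/1.5 of their log2 fold change with trends removed and 5 rose past 1.5 times it, and without knockdown 1 or 2 this held for 14 and 9 in either direction. The cause of these changes was not tested. DESeq2 called 6 genes of all tested at an adjusted p under 0.05. No paired analysis was possible because the control has 1 library whose number comes from accession order only. Leaving out 1 knockdown library leaves 1 against 1, a value with no test. At this depth members under 1000 counts have standard errors of 0.14 or more on the log2 scale.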

Other observations

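The 13 regulators of TOP mRNA translation had a median log2 fold change of 0.08 with 10 above 0, against 50.2% of all genes tested. None of the 13 passed an unadjusted p under 0.05. RPS6KB2, an S6 kinase, was highest with 598, 718 and 757 counts (0.26, SE 0.15), and LARP4, a poly(A) binding regulator of mRNA stability, was lowest with 2049, 1829 and 1965 counts (-0.16, SE 0.12). LARP1, which binds the TOP start, had 6528, 6681 and 7282 counts (0.05, SE 0.11), and MTOR had 3019, 2753 and 3191 (-0.07, SE 0.12). MYC, a transcriptional driver of ribosome production, had 1540, 1623 and 1913 counts, with a log2 fold change of 0.15 (SE 0.12). Scaled to library totals, the control was the highest library for MTOR and the lowest for LARP1 and MYC.

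Among the biogenesis factors, proteins of the box C/D and H/ACA particles that modify ribosomal RNA had uneven values. FBL, the methyltransferase of the box C/D particle, had 1827, 2232 and 2559 counts (0.34, SE 0.12), and its partners NOP56 and NOP58 were at 0.04 and 0.09. NHP2 and NOP10 of the H/ACA particle were at 0.43 and 0.34, and DKC1, the pseudouridine synthase of that particle, at -0.11, and GAR1, its other core protein, at 0.11 (SE 0.18). None passed an edgeR adjusted p under 0.05, and both particles were picked once their values were known. These values are without removal of length and GC trends, and the differences within each particle were not tested.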
